A study of Mus musculus with 16 samples.

Results

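Open chromatin was measured at the genes of adhesion G protein-coupled receptors in mouse prostate organoids, which are epithelial cells grown in gel as hollow, gland-like structures. The family was taken as the protein-coding genes of mm10 whose symbols start with Adgr, 27 of 21900. The data were ATAC-seq peak lists, one per library; ATAC-seq marks places where a transposase can cut because the DNA is accessible. Overlapping peaks of all 16 libraries were merged into 86616 regions, and a region was given to the protein-coding gene whose body was nearest within 100 kb. By that rule 201 regions belonged to the family; 17 of them were called in 1 library and were set aside, which left 184 of the 80352 regions called in 2 libraries or more. A gene's value in a library is the number of its regions with a called peak there.

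Adhesion G protein-coupled receptors join a long extracellular part, built from adhesive modules, to a membrane-spanning part that couples to G proteins. Most carry a GAIN domain that cuts the receptor in the endoplasmic reticulum, and the stretch left at the cut, the tethered agonist, switches the receptor on once the outer fragment is moved or pulled away. Ligands are mostly proteins of neighbouring cells or of the extracellular matrix, such as teneurins, neurexins, collagens and laminins, and signals run through G proteins and cyclic AMP, with roles in epithelia, vessels, nerves, leukocytes and sensory hair cells.

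The libraries fall into 4 groups of 4: SPOPmut organoids with DHT, SPOPmut organoids with EtOH, Control organoids with DHT, and Control organoids with EtOH. SPOP, an adaptor that brings substrates to the cullin 3 ubiquitin ligase, is often mutated in human prostate tumours; DHT, dihydrotestosterone, activates the androgen receptor and was given at 10 nM for 24 h, and EtOH was its solvent. The medium of all groups lacked mEGF, and all 16 libraries carry the label sgNT, which the labels do not spell out. The labels give neither the SPOP allele, nor how it was introduced, nor the age of the animals, nor the number of animals or organoid lines. Nothing says that the 4 libraries of a group are separate cultures or animals, so the spread that each p-value weighs is that among these libraries and may be technical.

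Peak lists held 64192 ± 4832 peaks in SPOPmut with DHT, 63398 ± 3166 in SPOPmut with EtOH, 61014 ± 2406 in Control with DHT and 62302 ± 3421 in Control with EtOH (SD, n = 4 each); reads were not counted, so the depth is unknown. Pairs of libraries shared 0.846 to 0.924 of their called regions (shared over called in either) within a group and 0.653 to 0.801 between groups. Among the prostate epithelial markers 10 had 2 regions or more, and the promoters of 3 of the 6 with a listed promoter were called in all 16 libraries. None of 3 endothelial, 0 of 4 stromal and 0 of 2 nerve markers with a listed promoter had it called in all 16 libraries, against 1 of 4 immune markers, and Col1a2 and Elavl4 had no region. Regions near the 5 endothelial markers summed to 9 to 14 per library in SPOPmut with DHT, 13 in SPOPmut with EtOH, 17 to 20 in Control with DHT and 19 to 21 in Control with EtOH; Cdh5 and Tek were lower in SPOPmut, as was the nerve marker Rbfox3 (difference -4.62). The immune sums were 12 to 15, 11 to 13, 7 to 10 and 10 to 12 in the same group order, with Ptprc higher in SPOPmut. The epithelial markers shifted as well: the luminal keratin genes Krt18 and Krt8 (3.0 and 1.5 more called regions per library in SPOPmut than in Control), Foxa1 (2.12) and the basal Krt14 (0.625) were higher in SPOPmut, and the basal factor gene Trp63 was lower (-3.62; adjusted p of 0.00325 to 0.0456 for the epithelial 5 and Rbfox3, exact permutation tests). Krt8, Krt18 and the unchanged Krt5 lie on chromosome 15, whose share of called regions was 1.18 times as large in SPOPmut as in Control. The part of other cell types in the results below was not tested.

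Promoters are shown for 5 receptors because they span the behaviours seen in the family: one lost in part of the SPOPmut libraries (Adgra3), one called in Control libraries and in no SPOPmut library (Adgra1), 2 called everywhere (Adgrg1, Adgrf4) and one never called although distant regions of its gene moved with DHT (Adgrf1). They are RefSeq windows on GRCm38.p6 (mm10), 250 bases before to 50 after a transcription start, read 5′ to 3′ on the gene's strand. Capitals mark motif letters found on either strand. The GC box, bound by Sp factors, was searched as GGGCGG. The AP-1 site, bound by Fos and Jun proteins, was searched as TGANTCA. The androgen receptor motif was taken as the single arm AGAACA of its paired element. The CCAAT box was searched by the letters of its name, and the core bound by ETS factors as CCGGAA. No overlap between different motifs occurs in these 5 windows.
Adgra3, chr5:50058947-50059246, minus strand: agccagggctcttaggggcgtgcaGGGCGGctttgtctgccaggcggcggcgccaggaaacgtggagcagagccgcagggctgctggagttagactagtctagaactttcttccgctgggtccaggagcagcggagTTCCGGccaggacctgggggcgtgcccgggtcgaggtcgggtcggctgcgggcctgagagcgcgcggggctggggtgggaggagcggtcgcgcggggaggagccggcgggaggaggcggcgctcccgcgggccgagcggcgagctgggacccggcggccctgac
Adgra1, chr7:139833924-139834223, plus strand: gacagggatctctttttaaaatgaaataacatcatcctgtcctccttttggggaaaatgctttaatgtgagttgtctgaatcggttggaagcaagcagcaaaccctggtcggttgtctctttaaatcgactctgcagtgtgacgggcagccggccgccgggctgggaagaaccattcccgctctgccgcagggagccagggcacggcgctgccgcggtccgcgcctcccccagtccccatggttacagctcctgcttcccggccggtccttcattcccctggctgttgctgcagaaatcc
Adgrg1, second listed start, chr8:94984149-94984448, plus strand: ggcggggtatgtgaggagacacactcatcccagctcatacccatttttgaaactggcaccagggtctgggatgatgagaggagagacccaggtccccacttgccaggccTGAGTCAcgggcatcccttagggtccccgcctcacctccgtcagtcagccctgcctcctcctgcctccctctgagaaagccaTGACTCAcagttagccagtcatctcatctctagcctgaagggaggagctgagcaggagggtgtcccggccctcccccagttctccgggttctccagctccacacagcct
Adgrf4, chr17:42692235-42692534, minus strand: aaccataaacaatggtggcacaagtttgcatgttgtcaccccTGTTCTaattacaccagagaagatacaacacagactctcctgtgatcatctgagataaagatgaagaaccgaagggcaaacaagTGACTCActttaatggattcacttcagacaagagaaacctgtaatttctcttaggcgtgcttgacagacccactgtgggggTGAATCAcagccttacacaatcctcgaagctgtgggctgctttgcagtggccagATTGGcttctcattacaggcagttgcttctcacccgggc
Adgrf1, chr17:43270097-43270396, plus strand: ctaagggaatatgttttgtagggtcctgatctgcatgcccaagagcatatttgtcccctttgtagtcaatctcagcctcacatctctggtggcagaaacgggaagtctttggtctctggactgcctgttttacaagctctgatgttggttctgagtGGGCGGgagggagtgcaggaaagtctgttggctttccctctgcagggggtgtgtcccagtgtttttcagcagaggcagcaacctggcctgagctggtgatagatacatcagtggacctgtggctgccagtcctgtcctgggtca

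The Adgra3 window is 74% G and C with 34 CG pairs and holds a GC box and an ETS core; a peak covered it in 1 SPOPmut library with DHT, 3 SPOPmut libraries with EtOH, 4 Control libraries with DHT and 4 Control libraries with EtOH. The Adgra1 window has 17 CG pairs and none of the 5 motifs, and was called in no SPOPmut library, in 2 Control libraries with DHT and in 4 Control libraries with EtOH. The Adgrg1 and Adgrf4 windows have 6 and 4 CG pairs, hold 2 AP-1 sites each and were called in all 16 libraries. The Adgrf1 window has 2 CG pairs and a GC box and was called in none. A match here is a match of letters, not a shown binding site.

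Across the family 24 windows of 20 members were listed. All 16 libraries called 7 of them (29.2%), no library called 13 (54.2%) and some libraries called 4 (16.7%); of 21263 windows of all protein-coding genes, 46.6% were called in all 16, 46.6% in none and 6.78% in some. The windows called everywhere were those of Adgrf4, Adgrg2, Adgrg6 and Adgrl1, both of Adgrg1 and the second of 3 for Adgrl3. Besides Adgra1 and Adgra3, the partly called ones were those of Adgrb2 and the first of Adgrl3. GC boxes occurred in 13 of the 24 windows (54.2%, against 46.2% of all windows) and CCAAT boxes in 6 (25%, against 38.2%). AP-1 sites, the androgen receptor motif and the ETS core occurred in 3 each (12.5%), against 6.99%, 16.2% and 18.7% of all windows.

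Family regions lay mostly away from gene ends. Of the 184, 8.15% lay within 1 kb of an end of the gene, 55.4% elsewhere in the gene body and 36.4% outside it, against 15.7%, 47.2% and 37.1% of all 73249 assigned regions. All 16 libraries called 81 of the 184 (44%), against 50.1% of all assigned regions. Among regions within 1 kb of a gene end the share called everywhere was 26.7% of 15 in the family and 80.0% of 11491 over all genes, while in gene bodies it was 44.1% and 44.6%. The family share rests on few regions. Ends are those of the gene body, so the promoter regions of Adgrf4 and Adgrg1, called in all 16 libraries, count as gene body here. The median width was 608.5 bp in the family and 678 bp over all assigned regions.

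Each library called 113 to 133 family regions in SPOPmut with DHT, 117 to 133 in SPOPmut with EtOH, 119 to 135 in Control with DHT and 122 to 139 in Control with EtOH. The means were 122.5 ± 9.54, 124.2 ± 7.97, 124.5 ± 7.19 and 131.2 ± 6.99 in that order (SD, n = 4 each), and the ranges overlap. As a share of all called regions the means were 0.203%, 0.208%, 0.217% and 0.224%.

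Members differed widely in how much open chromatin they carried. Adgrv1, the giant receptor of the ankle links of sensory hair cells, had 35 regions, Adgrg6, which Schwann cells need for myelination, had 24, Adgrg2, a receptor of epididymal and efferent duct epithelium, had 22, and Adgrb1, an engulfment receptor for phosphatidylserine, had 18. A longer gene gathers more regions by construction: with all assigned regions set against gene length, the order per 100 kb changed to Adgre5 (33.2 regions), Adgrb1 (24.6), Adgrg2 (20.4) and Adgrg1 (20.3), and Adgrl3, with the longest gene of the family, had 1.36. That ratio also counts regions outside the gene, which raises it for short genes, so it is not a density inside genes. Inside the gene lay 3 of 6 regions of Adgre5, 14 of 18 of Adgrb1, 12 of 22 of Adgrg2 and 6 of 8 of Adgrg1. In all, 20 members had 2 regions or more and could be tested. Adgra2, a Wnt7 co-receptor of brain vessels, and Adgrf5, which controls lung surfactant, had 1 region each, called in all 16 libraries. The single region of Adgrg7, 3.33 kb upstream of its start, was called in 4 libraries each of SPOPmut with DHT, SPOPmut with EtOH and Control with EtOH and in 0 of 4 of Control with DHT. Adgrb3, Adgre4, Adgrg4 and Adgre1, which encodes the mouse macrophage antigen F4/80, had none, so in each of the 16 libraries their count was 0.

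**Figure D1:**
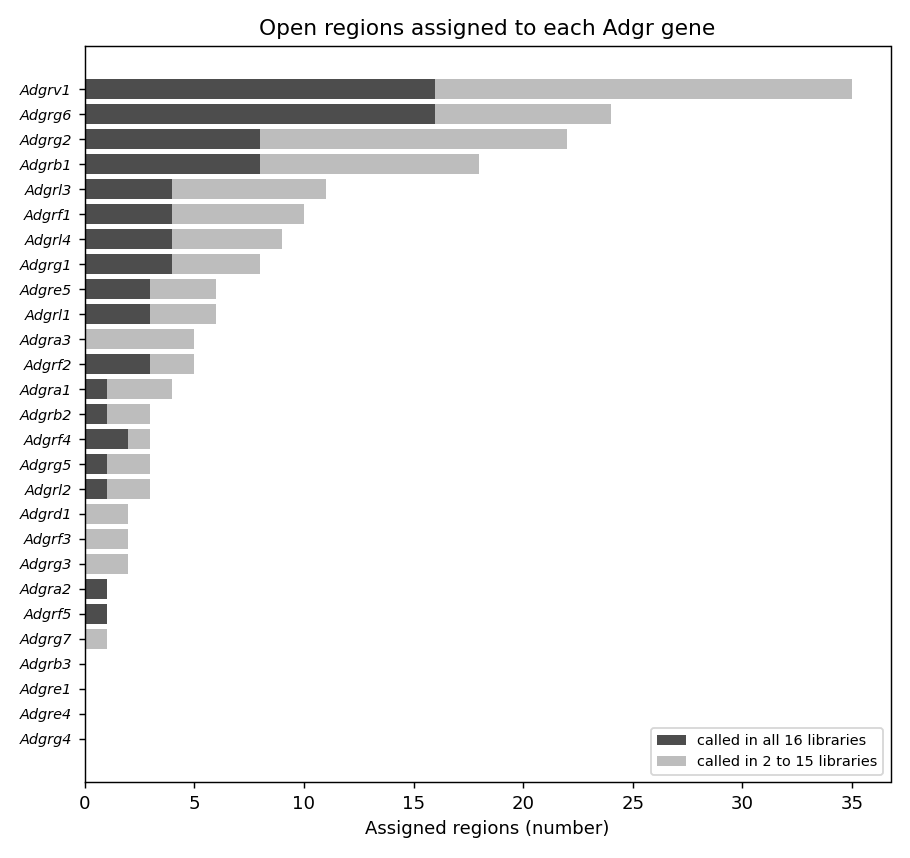
Number of regions assigned to each of the 27 receptors (horizontal axis, regions called in 2 libraries or more), with those called in all 16 libraries dark and the others grey. Adgrv1 has 35 regions, Adgrg6 has 24 with 16 of them called in all 16 libraries, and 4 receptors have none.

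The first comparison asks how the SPOPmut genotype changes access to these genes. In all, 7 receptors passed the test, 5 with fewer and 2 with more called regions in SPOPmut: Adgra3, Adgra1, Adgrl1, Adgrf2 and Adgrg3 fell, and Adgre5 and Adgrg2 rose. Of all 11213 genes tested, 31.5% passed, 19.4% higher and 12.1% lower, so the 7 of 20 stand near the background. Differences are SPOPmut minus Control in called regions per library, averaged over the 2 treatments. The test was an exact two-sided permutation of genotype within treatment over all 16 libraries, with Benjamini-Hochberg adjustment over the 11213 genes and a threshold of 0.05. The median difference was -0.375 over the 20 tested members (7 above 0, 11 below, 2 at 0) and 0 over all genes. With counts taken as a share of each library's called regions, 12 members passed, 2 higher and 10 lower, where 43.9% of all genes did. Whole chromosomes also shifted: the share of a library's called regions that lay on chromosome 5 was 0.930 times as large in SPOPmut as in Control, that on chromosome 8 0.912 times, that on chromosome 7 1.08 times, and those on chromosomes 17 and X 1.04 times each. The largest shifts among chromosomes that carry members were on chromosome 15, that of Adgrb1 (1.18 times), and chromosome 13, that of Adgrv1 (0.875 times). After correction for the call rate of each chromosome 12 members passed, among them the same 7, where 49.2% of all genes did.

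Adgra3, an orphan receptor known in mouse as a marker of spermatogonial progenitors (gene ID 70693, chr5:49959951-50058996), had the largest fall. Its counts with DHT were 0, 0, 0 and 1 in SPOPmut libraries and 5, 5, 5 and 5 in Control libraries; with EtOH they were 1, 1, 1 and 0 in SPOPmut libraries and 5, 3, 4 and 4 in Control libraries. Every SPOPmut library lay below every Control library under both treatments (difference -4.0, adjusted p = 0.00325 by the exact permutation test). All 5 of its regions lie in the gene. The 4 that lie 26.9 to 91.5 kb into the gene were called in none of the 8 SPOPmut libraries, and the one over the promoter printed above was the only region with SPOPmut calls. No region of another gene lies within 200 kb of the gene, so the fall has no neighbours to be set against.

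A trio of Adgra3 regions led the family's lower calls by peak strength. The regions chr5:49966946-49968073 and chr5:50026261-50027485 were called in 0 of 8 SPOPmut libraries and in 8 of 8 Control libraries, and chr5:50031788-50032372 in 0 of 8 SPOPmut libraries, 4 of 4 Control libraries with DHT and 3 of 4 with EtOH (adjusted p = 0.00961, 0.00961 and 0.0292 by the exact test over 80352 regions). Where called, their −log10 p stood at the 55.5th, 52.1st and 54.3rd percentile of their libraries' lists, so they are mid-strength peaks.

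Adgra1, a brain receptor with no known ligand (gene ID 52389, chr7:139834097-139878088), had 1 called region in each of the 8 SPOPmut libraries. Control libraries had 3, 1, 3 and 3 with DHT and 3, 3, 4 and 3 with EtOH (difference -1.88, adjusted p = 0.0102, exact permutation test). With EtOH the genotypes did not overlap; with DHT 1 Control library equalled the SPOPmut value. The region chr7:139833371-139833862, 0.558 kb upstream of the start, was called in 0 of 8 SPOPmut libraries, 3 of 4 Control libraries with DHT and 4 of 4 with EtOH (adjusted p = 0.0292, exact test), and the promoter window behaved alike, as given above.

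Adgrl1, latrophilin 1, a neuronal receptor for teneurins and neurexins and the target of spider latrotoxin (gene ID 330814, chr8:83900098-83941954), had 3 called regions in each of the 8 SPOPmut libraries. Control libraries had 6, 4, 6 and 4 with DHT and 4, 4, 4 and 5 with EtOH (difference -1.62, adjusted p = 0.00325, exact permutation test). No library of one genotype reached the other, and the promoter was called in all 16. The clearest loss was chr8:83824902-83825620, 74.8 kb upstream, called in 0 of 8 SPOPmut and 8 of 8 Control libraries. With regions limited to 25 kb from a gene the difference was -0.625 (adjusted p = 0.391), and with gene bodies and 10 kb either side it was -0.625 (adjusted p = 0.424, exact permutation tests).

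Adgrf2, an orphan receptor in a chromosome 17 cluster with its relatives (gene ID 435529, chr17:42694028-42743753), had 3 called regions in each of the 8 SPOPmut libraries, against 5, 4, 5 and 4 in Control with DHT and 5, 4, 4 and 4 in Control with EtOH (difference -1.38, adjusted p = 0.00325, exact permutation test). The genotypes did not overlap, and the intragenic region chr17:42728479-42728862 was called in 0 of 8 SPOPmut and 8 of 8 Control libraries. With a stricter threshold on signal the difference was -0.625 (adjusted p = 0.0757, exact permutation test).

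Adgrg3, a receptor of granulocytes (gene ID 54672, chr8:95017113-95045250), had 2 regions. Its counts with DHT were 0 in each SPOPmut library and 1 in each Control library; with EtOH they were 1, 1, 1 and 0 in SPOPmut libraries and 2 in each Control library (difference -1.12, adjusted p = 0.00325, exact permutation test). Within each treatment no SPOPmut library reached a Control library. The intragenic region chr8:95018235-95018691 was called in 0 SPOPmut libraries with DHT, 3 with EtOH, and all 8 Control libraries, and chr8:95048175-95048443, past the end of the gene, in the 4 Control libraries with EtOH alone.

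Adgre5, CD97, a receptor for the complement regulator CD55 on leukocytes and many epithelia (gene ID 26364, chr8:83723245-83741311), was one of the 2 that rose. Its counts with DHT were 5, 5, 6 and 6 in SPOPmut libraries and 4, 4, 4 and 3 in Control libraries; with EtOH they were 6, 5, 6 and 5 in SPOPmut libraries and 4, 3, 4 and 3 in Control libraries. All SPOPmut libraries lay above all Control libraries (difference 1.88, adjusted p = 0.00325, exact permutation test). The intragenic region chr8:83739938-83740642 was called in 8 of 8 SPOPmut libraries and 1 of 8 Control libraries (adjusted p = 0.0292, exact test). The region chr8:83768584-83768985 outside the gene was called in 6 and 0 and did not pass (adjusted p = 0.0695, exact test). Both are weak peaks (14.8th and 11.7th percentile where called), and with a stricter threshold on signal the difference was 0.25 (adjusted p = 0.902, exact permutation test).

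Adgrg2 (gene ID 237175, chrX:160390318-160498076) also rose. Its counts with DHT were 15, 16, 18 and 19 in SPOPmut libraries and 13, 12, 16 and 10 in Control libraries; with EtOH they were 15, 15, 16 and 17 in SPOPmut libraries and 14, 12, 14 and 13 in Control libraries. The genotypes did not overlap with EtOH and overlapped in part with DHT (difference 3.38, adjusted p = 0.0136, exact permutation test). Among the regions called more often in SPOPmut, chrX:160323619-160324378, 66.7 kb upstream, was called in 8 of 8 SPOPmut and 0 of 8 Control libraries (adjusted p = 0.00961), and chrX:160307300-160307968, 83.1 kb upstream, in 8 of 8 and 2 of 8 (0.104, exact tests). Inside the gene 2 regions went the other way: chrX:160471086-160471659 was called in 1 of 8 SPOPmut and 8 of 8 Control libraries (adjusted p = 0.0292), and chrX:160476865-160477111 in 0 of 8 and 4 of 8 (0.354, exact tests). The regions at 0.104 and 0.354 did not pass. The 19 regions of other genes within 200 kb were also called more often, 17.2 ± 0.957 in SPOPmut against 9.5 ± 0.577 in Control with DHT, and 14.0 ± 1.15 against 8.25 ± 0.957 with EtOH (SD, n = 4 each). With regions limited to 25 kb the difference was 0.625 (adjusted p = 0.630), and with gene bodies and 10 kb either side it was 0 (adjusted p = 1, exact permutation tests).

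**Figure D2:**
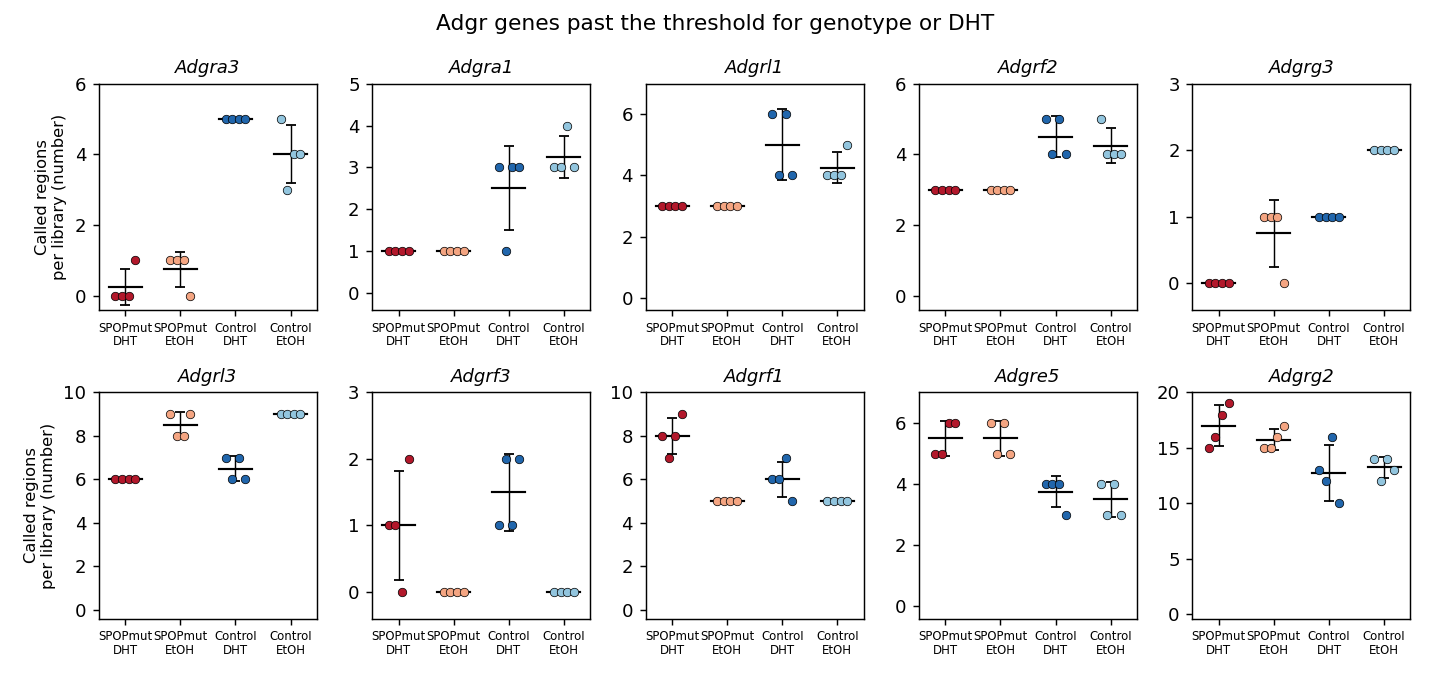
Called regions per library (vertical axis) for the 10 receptors past adjusted p under 0.05 for genotype or DHT; each point is 1 library, the bar is the group mean and the whisker 1 SD (n = 4). Adgra3 has 0 or 1 called regions in the SPOPmut libraries and 3 to 5 in the Control libraries; Adgrl3 has 6 in each SPOPmut library with DHT and 8 or 9 with EtOH.

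Single regions changed with genotype in further members whose totals did not pass. Over the family 6 of 184 regions were higher in SPOPmut (3.26%, against 3.76% of all 80352 regions) and 10 were lower (5.43%, against 3.23%). The highest-ranked gains besides that of Adgrg2 were chr10:14551373-14552057, 6.68 kb upstream of Adgrg6, called in 8 of 8 SPOPmut and 0 of 8 Control libraries (adjusted p = 0.00961), and chr15:74549467-74549717 inside Adgrb1, called in 7 of 8 and 0 of 8 (adjusted p = 0.0292, exact tests). Adgrl3 had one of each kind inside its gene: chr5:81285383-81285915 was called in 8 of 8 SPOPmut and 0 of 8 Control libraries, and chr5:81465988-81466389 in 0 of 8 and 7 of 8. In Adgrd1, a receptor that raises cyclic AMP, chr5:129177806-129178343 was called in 0 of 8 SPOPmut and 8 of 8 Control libraries. The Adgrl3 and Adgrd1 regions are weak peaks (10.4th, 14.5th and 13.6th percentile where called).

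Within each treatment, regions called in all 4 libraries of one genotype and none of the other were counted without a test. With DHT, 10 family regions were present in SPOPmut and absent in Control (5.43%, against 6.41% of all regions) and 11 were absent in SPOPmut and present in Control (5.98%, against 4.22%). With EtOH the numbers were 9 (4.89%, against 4.84%) and 15 (8.15%, against 4.36%).

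Adgrl2, latrophilin 2 (gene ID 99633), had 1 called region in each SPOPmut library with DHT and 2 in every library of the other 3 groups (SPOPmut minus Control -0.5, adjusted p = 0.0782, exact permutation test). The fall passed under 5 other settings, with adjusted p of 0.00140 by covered bases to 0.0282 as a share of called regions (exact permutation tests). Equal totals hid an exchange of regions: chr3:148988981-148990044, at the upstream end of the gene body, was called in 0 of 8 SPOPmut and 8 of 8 Control libraries (adjusted p = 0.00961, exact test), and chr3:149077066-149077513 outside the gene was called in the 4 SPOPmut libraries with EtOH alone. Both are weak peaks (17.5th and 8.13th percentile where called).

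Adgrl4, a receptor of endothelial cells (gene ID 170757), had with DHT 6, 5, 6 and 6 called regions in SPOPmut and 6, 5, 6 and 7 in Control, and with EtOH 6, 5, 5 and 4 in SPOPmut and 7, 7, 6 and 7 in Control. The genotypes overlap with DHT and touch with EtOH (difference -1, adjusted p = 0.119, exact permutation test), beside the fall of the endothelial marker sums given above, whose part was not tested. The fall passed under 7 other settings, among them the stricter signal threshold (-1.62, adjusted p = 0.00755), peaks covering 50% of a region (-1.75, 0.0217) and the chromosome correction (-1.48, 0.00341, exact permutation tests). Its promoter was called in no library.

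Adgrg1, a collagen III receptor that shapes the developing cortex (gene ID 14766), had with DHT 4, 4, 6 and 5 called regions in SPOPmut and 4, 4, 6 and 4 in Control, and with EtOH 6, 5, 6 and 6 in SPOPmut and 7, 6, 6 and 5 in Control. The genotypes overlap fully in total (difference 0, adjusted p = 1, exact permutation test). The region chr8:94974277-94975102, at the upstream end of the gene body and 2.42 kb upstream of its first listed start, was called in 6 of 8 SPOPmut and 0 of 8 Control libraries. The region chr8:94991030-94991556 inside the gene was called in 0 and 5. Neither region passed for genotype (adjusted p = 0.0695 and 0.123, exact test). Adgrg6 (gene ID 215798) had with DHT 20, 20, 21 and 20 in SPOPmut and 19, 20, 20 and 19 in Control, and with EtOH 20, 18, 20 and 17 in SPOPmut and 19, 18, 18 and 19 in Control, which overlap (difference 0.5, adjusted p = 0.650, exact permutation test). The direction at Adgrg6 depended on the measure: the difference was 1.5 regions within 25 kb (adjusted p = 0.0125) and with gene bodies and 10 kb either side (0.0140), and 1.54 after the chromosome correction (0.0217), while covered bases, a measure chosen after seeing the data, fell by 1.38 kb in SPOPmut (0.00676, exact permutation tests). Adgrb1, Adgrb2, Adgrd1, Adgrg5, Adgrv1, Adgrf1, Adgrf3, Adgrf4 and Adgrl3 did not pass for genotype, with differences of -0.625 to 1.25. Some of them passed under other settings: with the stricter signal threshold Adgrb1 was higher (2.25, adjusted p = 0.0290) and Adgrl3 lower (-1.25, 0.00941), with lists of equal length Adgrd1 (-0.875, 0.0380) and Adgrl3 (-1.38, 0.0416) were lower, and after the chromosome correction Adgrv1 was higher (2.59, 0.00469, exact permutation tests). With lists of equal length Adgrb1 and Adgrv1 had the opposite sign and did not pass (-0.5 and -1.38, adjusted p = 0.746 and 0.329, exact permutation tests). As a share of called regions Adgrd1, Adgrg5 and Adgrl3 were lower in SPOPmut (adjusted p = 0.00220, 0.0334 and 0.0433, exact permutation tests).

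The second comparison asks what the androgen did. Of the 20, 4 receptors passed: Adgrf1 and Adgrf3 rose with DHT, and Adgrl3 and Adgrg3 fell. Of all genes tested 8.55% passed, 5.41% higher and 3.14% lower, against 20% of the 20 members (4), 2 in each direction. The test permuted treatment within genotype and was otherwise the same; differences are DHT minus EtOH in called regions per library, averaged over genotypes. The median difference was 0.125 over the members (11 above 0, 8 below, 1 at 0) and 0 over all genes. With counts as a share of each library's called regions 6 members passed, 2 higher and 4 lower, where 20.6% of all genes did, and with a stricter threshold on signal 1 of 16 tested members did, where 9.38% of all genes passed.

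Adgrl3, latrophilin 3, a synaptic receptor for FLRT proteins and teneurins (gene ID 319387, chr5:81019085-81827825), had the largest DHT difference that passed. SPOPmut libraries had 6, 6, 6 and 6 with DHT and 9, 8, 8 and 9 with EtOH; Control libraries had 7, 6, 7 and 6 with DHT and 9, 9, 9 and 9 with EtOH. In both genotypes all DHT libraries lay below all EtOH libraries (difference -2.5, adjusted p = 0.0119, exact permutation test). The regions behind it differed between genotypes. In SPOPmut the regions 134.5, 249.7 and 420.2 kb into the gene were called in 0 of 4 libraries with DHT and 4 of 4 with EtOH. In Control the region 62.6 kb into the gene was called in 0 of 4 with DHT and 4 of 4 with EtOH, those at 134.5 and 249.7 kb in 2 and 1 of 4 with DHT and 4 of 4 with EtOH, and that at 420.2 kb in 4 of 4 under both.

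Adgrf1, a receptor for the lipid amide synaptamide in mouse neurons (gene ID 77596, chr17:43270283-43325876), rose with DHT. SPOPmut libraries had 8, 7, 8 and 9 with DHT and 5, 5, 5 and 5 with EtOH; Control libraries had 6, 6, 7 and 5 with DHT and 5, 5, 5 and 5 with EtOH. In SPOPmut the treatments did not overlap, and in Control 1 DHT library equalled the EtOH value (difference 2.0, adjusted p = 0.0288, exact permutation test). The region chr17:43206548-43207484, 63.3 kb upstream of the start, was called in 8 of 8 libraries with DHT and 0 of 8 with EtOH (adjusted p = 0.0231, exact test); at the 76.6th percentile of its lists where called, it was the strongest of the family's regions that passed in either comparison. A further region 79.0 kb upstream was called in the 4 SPOPmut libraries with DHT alone, while one 45.4 kb upstream went against the total, called in 1 DHT and 8 EtOH libraries. The call rests on distance and threshold: the difference was 0.625 within 25 kb (adjusted p = 0.102) and with gene bodies and 10 kb either side (0.121), 1.5 with the stricter signal threshold (0.131), and 1.88 when a peak had to cover 50% of a region (0.0917, exact permutation tests).

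Adgrf3, an orphan receptor (gene ID 381628, chr5:30193431-30205754), had 1, 1, 0 and 2 called regions in SPOPmut with DHT and 0 in each SPOPmut library with EtOH. In Control it had 1, 2, 1 and 2 with DHT and 0 in each library with EtOH (difference 1.25, adjusted p = 0.0288, exact permutation test). No EtOH library had a call at this gene, and 7 of 8 DHT libraries did, mostly at chr5:30206198-30206739 within 1 kb of one end of the gene. These are weak peaks (9.07th percentile where called), and with lists of equal length the difference was 0.875 (adjusted p = 0.129, exact permutation test).

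Adgrg3, already lower in SPOPmut, was also lower with DHT. SPOPmut libraries had 0 with DHT and 1, 1, 1 and 0 with EtOH; Control libraries had 1 with DHT and 2 with EtOH, so in Control the treatments did not overlap (difference -0.875, adjusted p = 0.0288, exact permutation test). With regions called in 1 library kept, the difference was -0.75 (adjusted p = 0.0877, exact permutation test). The means of the neighbouring regions of Adgrg3 given above were also lower with DHT in both genotypes. Those near Adgrf1 and Adgrf3 were lower with DHT too, against the rise of these genes. The part of such neighbours was not tested.

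Over single regions, 2 of 184 family regions were higher with DHT (1.09%, against 1.51% of all regions) and 1 was lower (0.543%, against 0.259%). Besides the Adgrf1 region, chrX:160494969-160495356 inside Adgrg2 was called in 8 of 8 libraries with DHT and 0 of 8 with EtOH, and chr13:81236556-81237312 inside Adgrv1 in 0 of 8 and 8 of 8 (adjusted p = 0.0231 each, exact test). The Adgrv1 region is a weak peak (14.3rd percentile where called). Leaving out Control library 4 with DHT raised the count of changed family regions to 6. In SPOPmut, 8 family regions were called in all 4 DHT libraries and no EtOH library (4.35%, against 4.7% of all regions) and 5 the other way (2.72%, against 1.98%). In Control the numbers were 4 (2.17%, against 2.93%) and 10 (5.43%, against 1.96%).

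**Figure D3:**
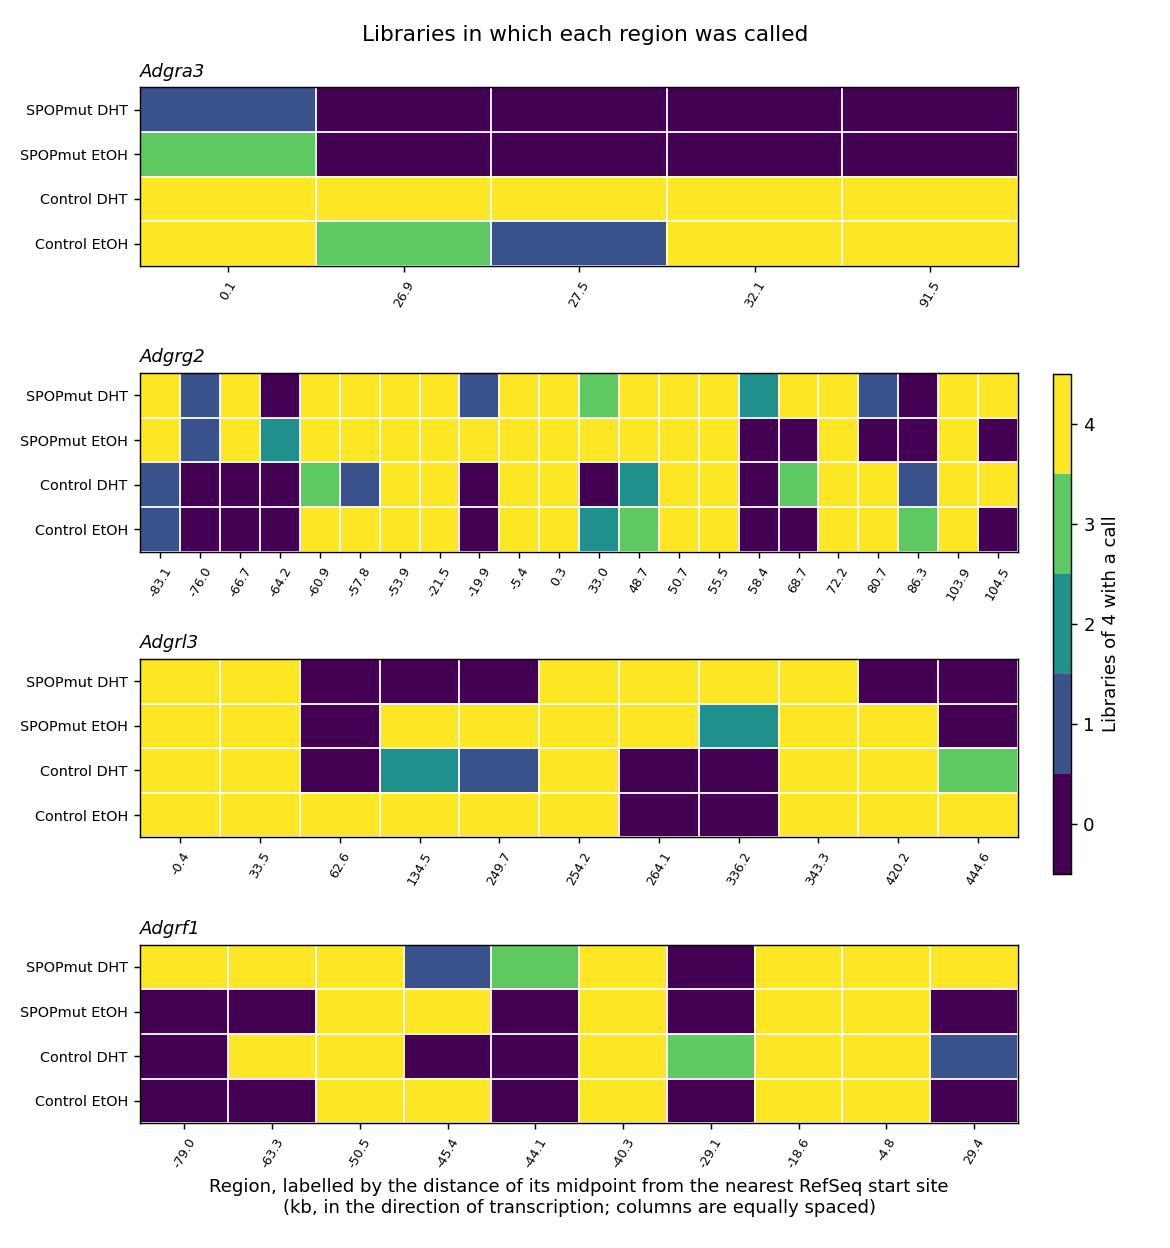
Number of libraries of 4 (colour) in which each region of Adgra3, Adgrg2, Adgrl3 and Adgrf1 was called, by group (rows) and by region in order of distance from the nearest RefSeq start (columns, kb). Adgra3 is nearly empty in both SPOPmut rows; the Adgrf1 region at -63.3 kb is called in all DHT libraries and no EtOH library.

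Among members that did not pass for DHT, Adgrv1 had 22, 23, 24 and 27 called regions with DHT and 26, 23, 28 and 26 with EtOH in SPOPmut, and 22, 21, 23 and 24 with DHT and 29, 25, 27 and 27 with EtOH in Control. The Control treatments did not overlap and the SPOPmut ones did (difference -3.12, adjusted p = 0.0942, exact permutation test). Adgrg1 had a difference of -1.25 and Adgrg6 of 1.25 (adjusted p = 0.144 each, exact permutation test). The rise at Adgrg6 passed within 25 kb (2.0, adjusted p = 0.0128), with gene bodies and 10 kb either side (2.0, 0.0146), with lists of equal length (1.38, 0.0232) and after the chromosome correction (1.44, 0.0476), and the fall at Adgrg1 passed with lists of equal length (-1.0, 0.0482), as a share of called regions (0.0381) and after the chromosome correction (0.0411, exact permutation tests). The fall at Adgrv1 passed as a share of called regions (adjusted p = 0.0143), after the chromosome correction (0.0116) and without SPOPmut library 4 with DHT (0.0308) or SPOPmut library 2 with EtOH (0.0412, exact permutation tests). At Adgrg6 chr10:14410970-14411382 was called in 4 SPOPmut and 3 Control libraries with DHT and in none with EtOH.

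**Figure D4:**
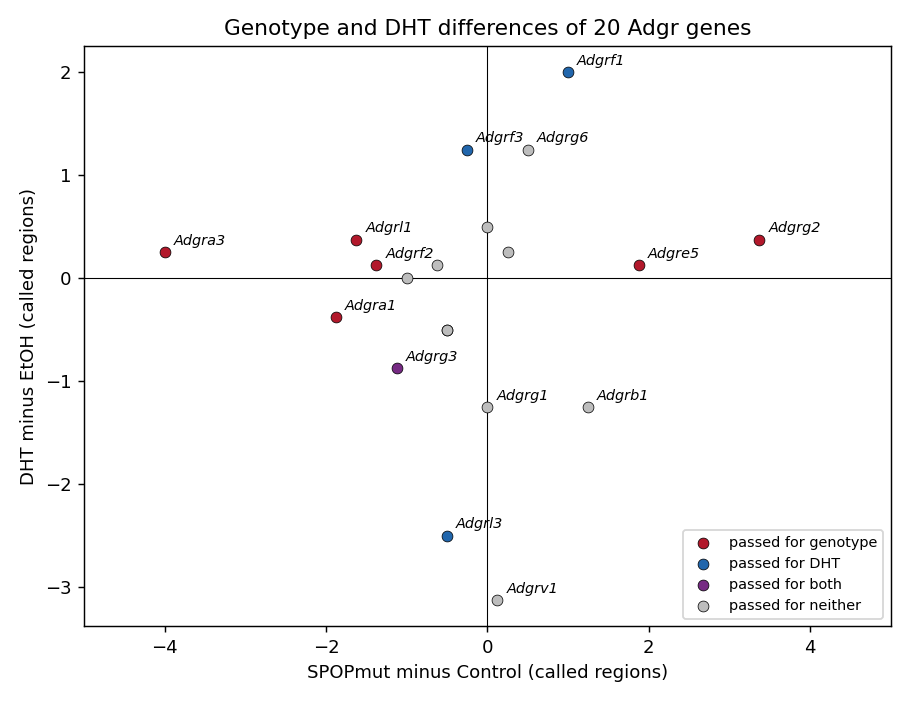
Difference between SPOPmut and Control (horizontal axis) and between DHT and EtOH (vertical axis) in called regions per library for the 20 tested receptors, each averaged over the other factor. Adgra3 lies at -4.0 on the genotype axis, Adgrg2 at 3.38, and Adgrl3 at -2.5 on the DHT axis.

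The third comparison asks whether DHT acted differently in the 2 genotypes. No member and none of the 11213 genes (0%) passed the exact permutation test of that difference after adjustment; 2 of 20 members (Adgra3 and Adgrl2) and 7.13% of all genes had an unadjusted p under 0.05. This permutation test does not first remove the DHT effect common to both genotypes. A gene with equal counts in all libraries of 1 genotype cannot reach an unadjusted p under 0.0286 in it. The lack of passing genes therefore does not show equal DHT effects. Adgrl2 had a difference of DHT effects of -1 (unadjusted p = 0.0286, exact permutation test), from 1 called region in each SPOPmut library with DHT against 2 elsewhere. In SPOPmut it rests on chr3:149077066-149077513 alone, a weak peak (8.13th percentile where called). With lists of equal length the DHT difference of Adgrl2, averaged over genotypes, was 0.125, against -0.5 in the main test. Adgra3 had -1.5 (unadjusted p = 0.0429, exact permutation test): DHT minus EtOH was -0.5 in SPOPmut and 1.0 in Control. For Adgrf1 the DHT effect was 3.0 in SPOPmut and 1.0 in Control, a difference of 2.0 (unadjusted p = 0.192, exact permutation test). When the mean DHT effect of both genotypes was first subtracted, 573 genes (5.11%) passed, among them Adgrl2 (adjusted p = 0.00890 by permutation). Adgrf1 did not pass there (unadjusted p = 0.0102, adjusted p = 0.153, by permutation). The test after subtraction is approximate.

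Several receptors lie on the same chromosome, and their values are set side by side here without a test of the differences between them. On chromosome 17 Adgrf1 rose with DHT, Adgrf2 fell in SPOPmut, Adgrf4 held 2 called regions in all but 2 libraries, and Adgrf5 kept its single region throughout. On chromosome 8 the neighbours Adgrg1, Adgrg3 and Adgrg5 had genotype differences of 0, -1.12 and -0.5, and Adgre5 and Adgrl1, on the same chromosome, 1.88 and -1.62.

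The family's other parts were read from lists in the same tests. The Celsr genes, the planar polarity branch that the symbol rule leaves out, had 1 of 3 tested genes higher in SPOPmut, Celsr1, with 25.2 ± 1.5 called regions in SPOPmut and 21.5 ± 1.29 in Control with DHT and 26.5 ± 0.577 in SPOPmut and 22.2 ± 2.36 in Control with EtOH (SD, n = 4 each; difference 4.0, adjusted p = 0.00325, exact permutation test). Of 16 tested ligand genes 5 were higher and 2 lower in SPOPmut (median difference 0.375): among the higher ones were Lama2, the laminin chain of the matrix ligand of Adgrg6, by 2.5, and Thy1, Prnp and C1ql4 by 0.625 to 1.25, while Tenm3 and Nrxn2 fell by 1.38 and 1.12. Of 23 tested partners and effectors 4 were higher and 2 lower (median 0): Arhgef12, which acts below the G12 and G13 proteins, by 4.75, and Gna12, Gnai1 and Adcy6 by 0.875 to 1.12, while Elmo1, the engulfment adaptor of Adgrb1, fell by 3.25 and Gnas by 1.75. With DHT no ligand gene passed, and of the effectors Gnai1 (1.88, adjusted p = 0.0119) and Gna13 (1.25, adjusted p = 0.0321, exact permutation tests) rose. These shares are to be read against the 31.5% of genes called for genotype and the 8.55% called for DHT. Celsr1, C1ql4 and Adcy6 lie on chromosome 15, whose share of called regions was 1.18 times as large in SPOPmut as in Control. Elmo1 lies on chromosome 13, whose share was 0.875 times as large. The part of these chromosome shifts in the list values was not tested.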

How the data were processed

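ATAC-seq peak lists of 16 libraries, 4 in each of 4 groups taken from the sample titles, were used. The submitters' processing notes name Bowtie2 2.3.4.1, SAMtools 1.8, Genrich and mm10; filters are not given in the sources used here. Each list covers 1 library. The authors deposited a signal per peak (an area, at least 200.0 in each list), a −log10 p at the summit, a score of at most 1000 and a summit offset. These are the authors' own values and depend on depth, which is unknown; the −log10 p was used only as a percentile within its own list.

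Peaks overlapping by 1 bp or more were merged with Python 3.11.15 (NumPy 2.4.6, pandas 2.3.3) and assigned to GRCm38.p6 RefSeq genes, the mm10 assembly. Regions called in 2 libraries or more and genes with 2 regions or more were tested. Genotype was permuted within treatment and treatment within genotype over all 4900 arrangements (smallest p 0.000408; 4 libraries against 4 alone allow 0.0286), two-sided, with Benjamini-Hochberg adjustment over all 11213 genes or 80352 regions at 0.05. The procedure was checked on made-up data. Plots were drawn with Matplotlib 3.10.9.

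Members and lists were chosen with earlier results of these data known. Values in every library are given for members past the threshold and for Adgrl2, Adgrl4, Adgre1, Adgre5, Adgrg1, Adgrg6, Adgrf1 and Adgrf5; single regions are the 3 per direction with the highest percentile among those that passed, and others were named after their values were seen. Not all of those others passed on their own. Replicate numbers in the titles were not used to pair libraries in the main tests. Deviations from group means correlated at -0.266 to 0.391 (mean 0.108) between libraries of the same number. Between libraries of different numbers they correlated at -0.375 to 0.401 (mean -0.0354), so a pairing by number is neither shown nor excluded. Alternatives covered distance, overlap, filters, thresholds, scaling and single libraries. Libraries and files outside these 16 lists were not analysed here. Some genes of the lists are not reported here.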

Additional observations from a re-analysis of the deposited data

Results flagged for a closer look

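Within groups of 4 libraries, a library was singled out where its gap to the nearest other exceeded Dixon's critical value. For the 16 genes and 64 groups examined, 36 groups did not hold a single value throughout and 13 were singled out; chance singles out about 1 group in 20, and in whole numbers this small, 3 equal values and 1 different value always qualify. In SPOPmut libraries with DHT, library 4 had 1 called region at Adgra3 where the others had 0, library 3 had 21 at Adgrg6 against 20, and library 2 had 5 at Adgrl4 against 6. In SPOPmut libraries with EtOH, library 4 had 0 at Adgra3 and 0 at Adgrg3 where the others had 1, and library 2 had 5 at Adgrg1 against 6. In Control libraries with DHT, library 2 had 1 at Adgra1 against 3, library 4 had 3 at Adgre5 against 4, and library 3 had 6 at Adgrg1 against 4. In Control libraries with EtOH, library 3 had 4 at Adgra1 against 3 and 6 at Adgrl4 against 7, library 1 had 5 at Adgrf2 against 4, and library 4 had 5 at Adgrl1 against 4. Only the Adgra1 and Adgrg1 values in Control libraries with DHT differ from the others by more than 1 region.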

How the results depend on the processing

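The main tests called 7 member genes for genotype, 4 for DHT and 0 for the difference, and 16 and 3 member regions. Taken as a share of called regions, 12 genes passed for genotype (43.9% of all genes, against 31.5% in the main test). With a chromosome correction 12 passed for genotype (49.2% of all genes) and 7 for DHT (21.0%, against 8.55%), and with covered bases, an alternative chosen after seeing the data, 13 passed for genotype (59.3%). The stricter signal threshold left 1 gene for DHT and 14 regions separated by genotype with EtOH (24 in the main count); the 25 kb limit left 9 separated by DHT in Control (14). Subtracting the mean DHT effect gave 1 gene for the difference. A replicate block, exchanging labels only within same-numbered pairs (smallest p 0.00781), left 6 genes for genotype, 0 for DHT, and 0 regions for either factor. Of the 16 libraries, 6 correlated best with one of their own number, and the labels do not say whether a number marks a pair. The replicate block ended the calls of Adgra1 for genotype (adjusted p = 0.0633) and Adgrl3 (0.149), Adgrf1, Adgrf3 and Adgrg3 for DHT (0.161 each, exact permutation tests). By covered bases the genotype difference turned to -1.38 kb at Adgrg6 and -0.288 kb at Adgrf4. Leaving out each library gave 7 to 7 genes for genotype, 4 to 5 for DHT, 0 to 0 for the difference, 16 to 19 and 3 to 6 regions, and 21 to 26, 24 to 27, 13 to 16 and 14 to 19 separated regions (genotype with DHT, genotype with EtOH, DHT in SPOPmut, DHT in Control); the 6 came without Control library 4 with DHT, and all 11 single calls held in all 16 omissions. Adgra3 and Adgrg3 kept their genotype calls under all alternatives that gave a value. Depth is unknown, so a region without a call is not shown to be closed.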
